A study of Mus musculus with 12 samples.

Results

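This account compares white matter astrocytes of GnT-IX-deficient mice after 12 weeks of cuprizone with those of untreated wild-type mice. It uses 6 of the 12 arrays of the series, chosen by their titles: the 3 deficient arrays and the 3 wild-type arrays at 0 weeks. Every transcript cluster with 1 gene symbol was included, which gave 19505 genes. All mice were C57BL/6. The diet held 0.2% (w/w) cuprizone and began at 8 to 12 weeks of age, so mice fed it for 12 weeks were also older when sampled than mice fed it for 0 weeks. Genotype, diet and age thus differed together and cannot be told apart in this comparison. The 3 wild-type arrays at 12 weeks of the same diet are given beside it, and the deficient arrays were tested against them directly. No untreated deficient group and no untreated group of the later age was analysed here. The deficiency is given by the labels only as a genotype, with no cell type or stage named. The brain's white matter was digested with papain. After blocking of Fc receptors, astrocytes were pulled out on beads by their surface GLAST, a glutamate transporter whose gene is Slc1a3. RNA came from either of a pair of extraction kits. The labels do not assign kits to samples, so kit and group cannot be told apart. The labels call the 3 samples of a group biological replicates.

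Cuprizone is a copper chelator that kills mature oligodendrocytes and strips myelin from white matter, while astrocytes and microglia react around the lesions. GnT-IX, the product of Mgat5b, is a brain glycosyltransferase that adds a branch to O-mannosyl glycans. Resting astrocytes clear glutamate, couple through gap junctions and supply sterols, and reactive astrocytes raise intermediate filaments and secreted inhibitors.

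The 12 arrays had medians of 5.38 to 5.45 and lower quartiles of 3.73 to 3.85 on the log2 scale, and arrays of 1 group correlated at r of 0.974 to 0.9845 across genes. The genes that define astrocytes were well represented. The 21 measured genes of the homeostatic astrocyte list averaged 9.66 to 10.07 in the untreated arrays and 8.65 to 9.31 in the deficient arrays. Genes of other cells were present too, those of mature oligodendrocytes at levels close to the astrocyte list. Markers of mature oligodendrocytes averaged 9.43 to 9.80 in the untreated arrays and 8.61 to 9.35 in the deficient arrays. Microglia markers averaged 5.03 to 5.61 in the untreated arrays and 7.06 to 7.95 in the deficient arrays. Choroid plexus markers averaged 4.97 to 5.74 in the untreated arrays and stood at 7.95, 7.11 and 5.94 in deficient replicates 1, 2 and 3. In such pooled cells, fewer cells of a type and less RNA per cell cannot be told apart, and the part of these other cells in the results was not tested beyond the values given.

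Of 19505 genes, 470 were higher and 331 were lower in the deficient 12-week arrays than in the untreated wild-type arrays. These 801 genes are 4.11% of those tested, with 2.41% higher and 1.7% lower (limma, adjusted p under 0.05 over all genes). These shares are the background for the list counts below. In the same comparison 4214 of the 19505 genes had an unadjusted p under 0.05. The median rise was 1.06 and the median fall was -0.94 on the log2 scale, against a median of -0.0067 over all genes, and 387 of the 801, or 1.98% of all genes, changed at least 2-fold. The 3 values of each group did not overlap for 798 of the 801 and for 25.1% of all genes. The 801 were called on these same arrays, so their separation largely follows from the call. Side by side with these, the 470 higher genes had a median of 0.75 in wild-type arrays at 12 weeks over the untreated arrays, and the 331 lower genes had a median of -0.63. That wild-type comparison called 514 genes, 2.64% of those tested (2.11% higher and 0.523% lower), or 144 without untreated replicate 1, 105 without untreated replicate 2, 77 without its own replicate 2 and 276 without its own replicate 3. Its differences share the untreated arrays with the comparison, so they are no independent measure. The direct test of deficient against wild-type arrays at 12 weeks, which shares the deficient arrays, called 5 genes, 0.0256% of those tested (4 higher, 0.0205%, and 1 lower, 0.00513%), while 1363 genes had an unadjusted p under 0.05. That count was 49 without deficient replicate 3, 9 without deficient replicate 1 and 3 without wild-type 12-week replicate 3. The number of calls against the untreated arrays depended on single arrays. Without deficient replicate 2 it was 156 and without deficient replicate 3 it was 322. Without untreated replicate 1 it was 98 and without untreated replicate 2 it was 123. Across the 6 fits that each left out 1 array, 83 of the 801 genes, 0.426% of all genes, kept their call, 68 higher and 15 lower. Of the 470 higher genes, 45 were dim in the untreated arrays, with a mean below the lower quartile of all values. This is a smaller share than the 4656 of 19505 (23.9%) over all genes. The sizes of these 45 rises are uncertain.

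**Figure D1:**
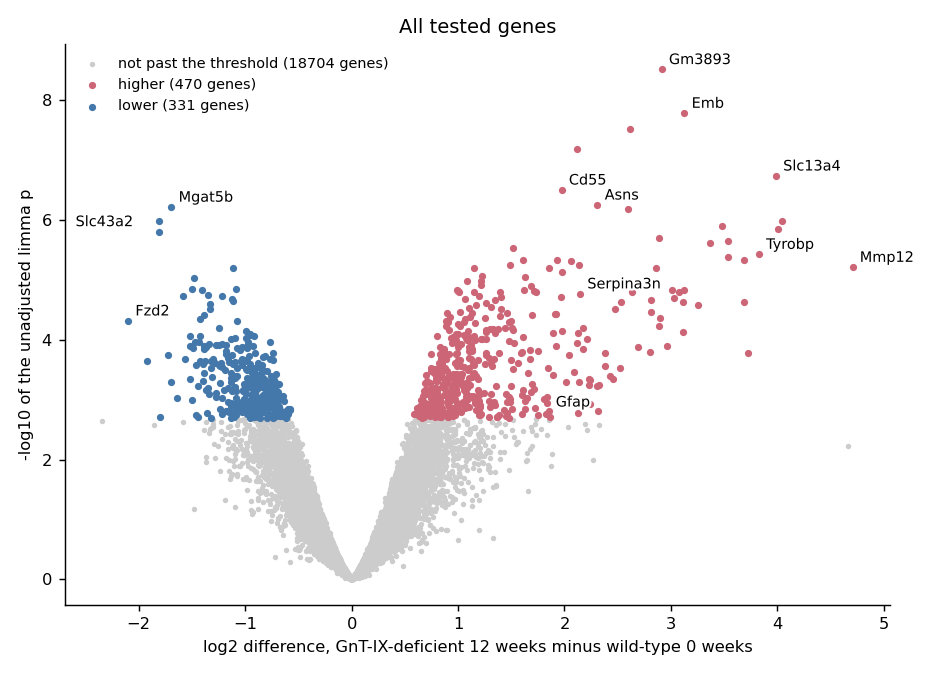
Each point is 1 of 19505 genes, with the log2 difference of deficient 12-week minus untreated wild-type arrays on the x axis and -log10 of the unadjusted limma p on the y axis. The 470 higher genes (red) reach a difference of 4.71 and the 331 lower genes (blue) reach -2.10.

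Mgat5b, the gene of the missing enzyme, was read first as a check of the labels. Its log2 values were 5.72, 5.57 and 5.74 in the untreated arrays, 5.96, 5.88 and 5.57 in the wild-type arrays at 12 weeks and 3.70, 4.19 and 4.06 in the deficient arrays. Every deficient array lay well below every wild-type array. Mgat5b was lower by -1.69 (SE 0.21, adjusted p = 0.00142) than in the untreated arrays and by -1.82 (adjusted p = 0.00159) than in the wild-type arrays at 12 weeks. The deficient values lay near the lower quartile of all values, 3.79, so the size of the fall is uncertain. Of the 10 measured genes nearest to Mgat5b in the RefSeq gene order, 5 on each side, 1 was called against the untreated arrays. That gene, Tnrc6c, fell by 0.87. In the direct test limma called none of the 10, 0 had an unadjusted p under 0.05, and the differences ran from -0.40 to 0.23.

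The other 4 genes called against both wild-type groups were Gm3893, Emb, Fam205a2 and Cd55, all higher in the deficient arrays. Gm3893, a predicted gene with no settled function, read 6.16, 5.74 and 5.73 in the untreated arrays and 5.85, 5.54 and 5.93 in the wild-type arrays at 12 weeks, against 9.30, 8.83 and 8.24 in the deficient arrays. It rose by 2.91 (SE 0.24, adjusted p = 5.98e-05) over the untreated arrays and by 3.02 (adjusted p = 3.69e-05) over the wild-type arrays at 12 weeks. The deficient arrays stood far above both wild-type groups, which overlapped each other. Fam205a2 lies 5 measured genes away from Gm3893 in the RefSeq order, and the 4 genes between them were not called in either comparison. Of the 10 nearest measured neighbours of Gm3893, 5 on each side, 2 were called over the untreated arrays, Fam205a2 and the chemokine gene Ccl27a (0.77, adjusted p = 0.0318). Fam205a2 was the 1 neighbour called in the direct test, in which 3 of the 10 had an unadjusted p under 0.05. It read 6.34, 5.92 and 6.18, then 5.97, 6.15 and 5.72, and then 8.30, 7.59 and 7.38 in the same order of groups, a rise of 1.61 (SE 0.23, adjusted p = 0.00387). A further transcript cluster of Fam205a2 did not show this, with 5.54, 5.53 and 4.92 in the untreated arrays and 5.13, 5.09 and 5.34 in the deficient arrays. With the mean of both clusters the gene was called in neither comparison, at 0.73 over the untreated arrays (adjusted p = 0.1) and 0.92 over the wild-type arrays at 12 weeks (adjusted p = 0.399). The gene belongs to a family of near-identical copies, so its reading is uncertain.

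Emb encodes embigin, a cell surface protein that partners monocarboxylate transporters. Its values were 3.83, 3.53 and 3.86 in the untreated arrays, 4.33, 4.48 and 3.92 in the wild-type arrays at 12 weeks and 7.25, 6.89 and 6.46 in the deficient arrays. It rose by 3.13 (SE 0.29, adjusted p = 0.000161) over the untreated arrays and by 2.62 (adjusted p = 0.00159) over the wild-type arrays at 12 weeks. Cd55 encodes decay-accelerating factor, which limits complement activation on cell surfaces. It read 2.78, 2.46 and 3.20 in the untreated arrays and 4.58, 5.16 and 4.62 in the deficient arrays, with 2.92, 3.42 and 3.26 in the wild-type arrays at 12 weeks. The deficient arrays lay above all wild-type arrays, with a rise of 1.97 (SE 0.23, adjusted p = 0.00103) and a direct difference of 1.59 (adjusted p = 0.0178). Both genes were dim in the untreated arrays, below 3.79 on average, so their sizes are uncertain. Of the 10 measured genes nearest to each, limma called 0 for Emb and 1, Cxcr4, for Cd55 over the untreated arrays. In the direct test limma called none of them, and for each gene 1 of the 10 had an unadjusted p under 0.05. Cd55b, next to Cd55, stood at 0.97 in the direct test (adjusted p = 0.163). The direct call of Cd55 was lost without deficient replicate 2 (adjusted p = 0.179) and without wild-type 12-week replicate 1 (0.0808) or 3 (0.109). That of Fam205a2 was lost without wild-type 12-week replicate 3 (0.0719). Gm3893, Emb and Fam205a2 were highest in deficient replicate 1 and lowest in replicate 3, the same order as the choroid plexus markers. Cd55 was highest in deficient replicate 2. With only deficient replicate 3, which had the lowest choroid plexus markers, the direct difference was 2.47 for Gm3893 (adjusted p = 0.00364), 2.22 for Emb (0.183), -1.74 for Mgat5b (0.101), 1.43 for Fam205a2 (0.193) and 1.42 for Cd55 (0.302). That fit has 1 deficient array, which is assumed to vary like the other groups, so these p-values carry no replication of the deficient group. With the choroid plexus marker mean as a covariate in the direct test, Gm3893 stood at 2.54 (adjusted p = 0.0339) and was the one gene called, Emb stood at 1.86 (0.42) and Mgat5b at -1.63 (0.42).

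**Figure D2:**
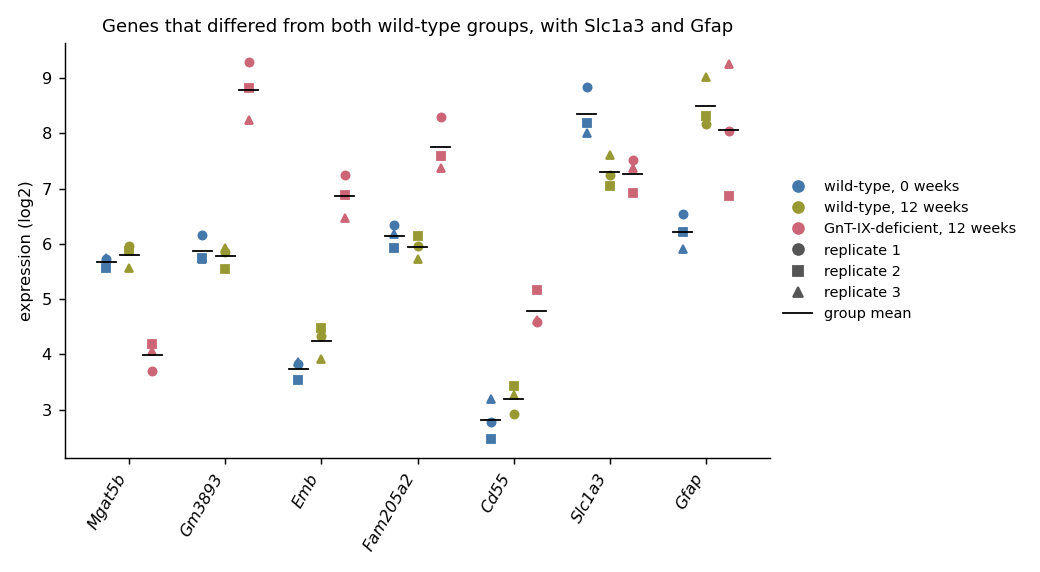
Log2 expression (y axis) in each array of the 3 groups, with marker shapes for replicates and bars for group means, for the 5 genes called against both wild-type groups and for Slc1a3 and Gfap. The first 5 genes were chosen by calls on these arrays, and in them the deficient arrays stand apart from both wild-type groups. For Slc1a3 and Gfap the range of the deficient arrays overlaps that of the wild-type arrays of 12 weeks. For Gfap the deficient arrays spread from 6.86 to 9.26, wider than the 8.17 to 9.02 of those wild-type arrays.

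Slc1a3, the antigen of the isolation, read 8.84, 8.19 and 8.01 in the untreated arrays and 7.51, 6.92 and 7.37 in the deficient arrays, with no overlap. It fell by 1.08 (SE 0.27, adjusted p = 0.0396). The call was lost without deficient replicate 2 or 3 or untreated replicate 1 or 2, where the adjusted p reached 0.178. The wild-type arrays at 12 weeks read 7.24, 7.05 and 7.61, and the direct difference was -0.03 (95% interval -0.61 to 0.55). Gfap, the intermediate filament of reactive astrocytes, rose from 6.55, 6.21 and 5.90 to 8.04, 6.86 and 9.26, by 1.83 (SE 0.46, adjusted p = 0.039). The deficient values spread over more than 2 log2 units, and it was called without deficient replicate 2 but not without any other single array (adjusted p up to 0.123). The wild-type arrays at 12 weeks read 8.17, 8.31 and 9.02, and the direct difference was -0.45 (95% interval -1.42 to 0.53).

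The largest rises were in genes of microglia and macrophages. Of the 15 largest rises among called genes whose groups did not overlap, 13 are known mainly from myeloid cells, and the others were Slc13a4 and Emb. Mmp12, macrophage elastase, rose most, from 2.69, 3.38 and 3.89 in the untreated arrays to 7.09, 8.45 and 8.54 in the deficient arrays, by 4.71 (SE 0.70, adjusted p = 0.00403). Bcl2a1b, Bcl2a1a and Bcl2a1d, survival genes of myeloid cells, rose by 4.05, 4.0 and 3.54. They are near-identical copies, so the array may read them together. Tyrobp, the adaptor of Trem2, rose from 5.39, 4.88 and 4.91 to 8.12, 9.68 and 8.86, by 3.83 (SE 0.54, adjusted p = 0.00384). Aif1, the microglial marker Iba1, read 2.35, 2.34 and 2.32 in the untreated arrays, at the dim end of the scale, and 5.12, 6.93 and 6.13 in the deficient arrays, a rise of 3.72 (SE 0.75, adjusted p = 0.0162). Its call was lost without deficient replicate 2 or 3 or untreated replicate 1 or 2 (adjusted p up to 0.0804), while the other 14 rises were called in all 6 fits without 1 array. That the deficient and untreated arrays of these 13 myeloid genes did not overlap follows from how they were chosen.

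Ly86, a partner of a Toll-like receptor relative, rose by 3.69. Ccl3, a chemokine of activated microglia, rose by 3.68, and C3ar1, the receptor for a complement C3 fragment, by 3.54. Cybb, the catalytic subunit of the phagocyte oxidase, rose by 3.48, Lyz2, lysozyme, by 3.36, and Fcgr3, a receptor for IgG, by 3.25. C1qa, a chain of the complement trigger C1q, rose from 7.05, 6.35 and 6.58 to 9.27, 10.17 and 9.91, by 3.12. The direct differences of the 13 genes all lay below 0, from -0.50 for Tyrobp to -1.37 for Cybb (95% interval -2.33 to -0.41, adjusted p = 0.523), and none was called.

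**Figure D3:**
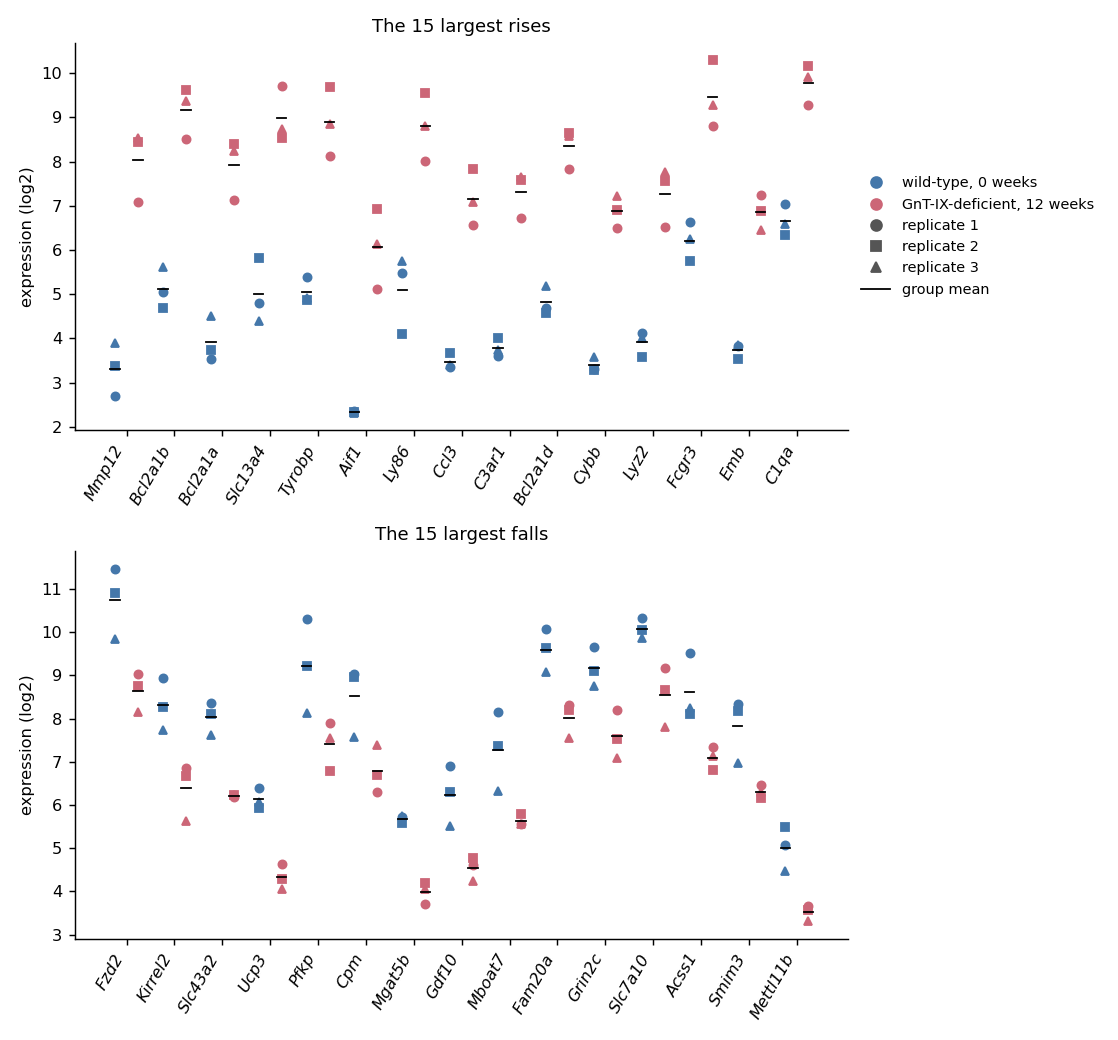
Log2 expression (y axis) of the 15 called genes with the largest rises and the 15 with the largest falls, in the 3 untreated wild-type and the 3 deficient 12-week arrays, with bars for group means. The arrays of each gene separate by group because the genes were chosen that way. Among the myeloid genes deficient replicate 1 is the lowest of its group, while Slc13a4 and Emb are highest in it.

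Microglia genes rose as a group. Of 19 measured members, 13 were higher and none lower (limma, adjusted p under 0.05), with a median of 2.17 against -0.0067 over all genes. Laptm5, a lysosomal protein of blood-lineage cells, rose by 2.81, Csf1r, the receptor that microglia need to survive, by 2.17, and Cx3cr1, the fractalkine receptor, by 1.37. Mpeg1, a pore-forming protein of macrophages, rose by 3.11 from a dim level, and Ctss, cathepsin S, by 2.89. Some defining genes did not pass: P2ry12 stood at 1.64 (adjusted p = 0.107), Tmem119 at 0.45 (0.477) and Sall1, a transcription factor of microglia, at -0.09 (0.838). The 13 calls became 7 without deficient replicate 2, 8 without deficient replicate 3, 8 without untreated replicate 1 and 6 without untreated replicate 2. The same list had a median of 2.97 in wild-type arrays at 12 weeks over the untreated arrays. The direct difference had a median of -0.57 with no call, and 1 gene, lower, had an unadjusted p under 0.05.

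Complement and oxidase genes, which arm phagocytes, rose in part. Of 18 complement genes, 7 rose and none fell, with a median of 0.76. C1qb rose by 2.81, C1qc by 2.23 and Itgam, a chain of complement receptor 3, by 1.83. The regulators Cd55 and Cd59a rose too, Cd59a by 1.08 (adjusted p = 0.0291) from 7.14, 7.54 and 7.66 to 8.68, 8.32 and 8.58, while it read 7.45, 6.73 and 7.50 in the wild-type arrays at 12 weeks (direct difference 1.30, adjusted p = 0.146). The call of Cd59a against the untreated arrays was kept without untreated replicate 3 alone. Of 5 measured subunits of the phagocyte NADPH oxidase, which makes superoxide, 3 rose: Cybb, Rac2 by 2.23 and Cyba by 1.48. The 7 complement calls became 4 without deficient replicate 2 or 3 or untreated replicate 1 or 2. The 3 oxidase calls became 1 without the same arrays and 2 without untreated replicate 3.

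Antigen presentation genes rose for 6 of 15 members, with a median of 0.97. They were the class II pathway genes H2-DMb1 (2.04), H2-DMa (1.75) and H2-Eb1 (1.22), and B2m (1.66), Psmb8 (1.45) and H2-T23 (1.10) of class I presentation. None of the 6 was called without deficient replicate 2 or without untreated replicate 2, 1 was called without untreated replicate 1, and 3 without deficient replicate 3. Of 13 genes of disease-associated microglia, 4 rose: Trem2, the lipid receptor, by 2.90, Igf1 by 1.92, Gpnmb by 1.63 and Lgals3 by 1.21. That count was 0 without deficient replicate 2, 1 without deficient replicate 3, 1 without untreated replicate 1 or 2 and 2 without untreated replicate 3. Of 15 lysosomal genes, Ctss and Ctsh (1.97), both cathepsins, rose, and both kept their call in all 6 fits without 1 array. Apoe stood at 0.40 (adjusted p = 0.197).

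Chemokine genes were mixed, with 3 higher and 1 lower of 18, against 2.41% higher and 1.7% lower over all genes. Ccl3 and Cxcl16 (1.90), a ligand on phagocytes, and the receptor Cxcr4 (1.15) rose, and Cxcl14 fell by 0.84. Without deficient replicate 2 or untreated replicate 1 or 2, Ccl3 was the one of the 4 still called, and Cxcl14 was kept without deficient replicate 1 alone. Among 21 growth factors and cytokines, Il1b rose from 3.53, 3.75 and 4.58 to 6.42, 7.71 and 7.07, by 3.11 (SE 0.52, adjusted p = 0.0066), and Igf1 and Igf2 (1.20) rose. Igf2 read 10.43, 9.67 and 8.88 in deficient replicates 1, 2 and 3, the same order as the choroid plexus markers, and its call was lost without deficient replicate 1 or 2 or untreated replicate 1 or 2 (adjusted p up to 0.2). The count of this list was 1 without deficient replicate 2 or untreated replicate 1 or 2. Of 19 interferon-stimulated genes, Usp18 rose by 1.49 and Ifit1, dim in the untreated arrays, by 1.26. Neither was called without deficient replicate 2 or without untreated replicate 1 or 2 (adjusted p up to 0.147), and 1 was called without deficient replicate 3 or untreated replicate 3. Of 10 markers of perivascular and blood macrophages, Ms4a7 rose by 3.03 and Mrc1, dim in the untreated arrays, by 1.46, the latter called without deficient replicate 1 but not without any other single array, while Ccr2 stood at -0.10 and Lyve1 at 0.15. Of 7 T cell and 5 neutrophil markers, limma called none, and 2 and 0 had an unadjusted p under 0.05, against 4214 of 19505 over all genes.

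With the microglia marker mean as a covariate, 3 of all genes were called against the untreated arrays, and 1429 had an unadjusted p under 0.05. That fit raised the median standard error by 1.682 times and kept a median of 76.9% of the differences of the 801 genes. The microglia list itself then had a median of -0.08, complement -0.02 and antigen presentation 0.06. The covariate is the mean of the microglia list, so a value near 0 for that list was set by the fit. The complement list shares C1qa, C1qb and C1qc with it. The homeostatic astrocyte list kept -0.55 of its -0.98, and the integrated stress response list stood at 0.33 against 0.28. Whether the rises came from more myeloid cells among the isolated cells was not tested.

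Promoter sequence is shown for 2 of the myeloid genes that rose, chosen because the letters GAGGAAGT (or ACTTCCTC on the other strand), a core of the binding element of PU.1, the transcription factor of the myeloid lineage, lie in them. The windows are the 250 bases before the annotated start of the RefSeq gene on GRCm38.p6, on the strand of the gene. Mmp12 is at chr9:7344147-7344396 (plus strand) and C1qc at chr4:136892915-136893164 (minus strand). Capitals mark the match.
Mmp12: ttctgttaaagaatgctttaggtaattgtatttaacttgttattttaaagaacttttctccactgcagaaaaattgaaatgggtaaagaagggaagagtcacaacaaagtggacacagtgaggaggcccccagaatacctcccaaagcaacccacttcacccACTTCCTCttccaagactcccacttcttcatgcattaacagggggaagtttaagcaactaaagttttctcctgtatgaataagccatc
C1qc: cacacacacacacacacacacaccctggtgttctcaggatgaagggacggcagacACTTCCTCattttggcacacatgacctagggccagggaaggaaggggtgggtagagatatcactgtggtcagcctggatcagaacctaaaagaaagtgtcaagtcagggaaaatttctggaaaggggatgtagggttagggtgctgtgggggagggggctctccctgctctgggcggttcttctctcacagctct
The letters were found in 4 of 13 of the largest rises with a window (Mmp12 and the 3 Bcl2a1 copies) and in 1 of 9 risen microglia genes, against 2.79% of 27025 genes. The 3 Bcl2a1 genes are near-identical copies, so their matches are not separate occurrences. The motifs shown here and below were picked with the expression values known, and a match is a description of the letters.

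Fzd2, a Wnt receptor, read 11.47, 10.91 and 9.84 in the untreated arrays and 9.02, 8.76 and 8.14 in the deficient arrays, a fall of 2.10 on the log2 scale (SE 0.37, adjusted p = 0.00965). Slc43a2, a transporter of large neutral amino acids, read 8.37, 8.10 and 7.62 and then 6.18, 6.23 and 6.24, and fell by 1.81 (SE 0.23, adjusted p = 0.00187). The deficient arrays lay close together for this gene and below all wild-type arrays at 12 weeks, 7.86, 7.00 and 7.02, yet the direct difference of -1.08 was not called (adjusted p = 0.178). Ucp3, a mitochondrial carrier, read 6.40, 5.92 and 6.07 and then 4.64, 4.28 and 4.05, and fell by 1.81 (SE 0.24, adjusted p = 0.00223). These 3 genes, like all the largest falls, were chosen among genes whose groups did not overlap.

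Among the other large falls, Kirrel2, an adhesion protein, fell by 1.92, Pfkp, the platelet form of phosphofructokinase, by 1.80, and Cpm, a carboxypeptidase, by 1.72. Gdf10, a growth factor of the TGF-beta family, fell by 1.69, Mboat7, a phospholipid acyltransferase, by 1.64, and Fam20a, a pseudokinase of the secretory pathway, by 1.58. Acss1, mitochondrial acetyl-CoA synthetase, fell by 1.52, Smim3 by 1.52 and Mettl11b by 1.5. Of the 15 largest falls, Slc43a2, Ucp3, Mgat5b, Fam20a and Mettl11b were called in all 6 fits without 1 array. Pfkp had the highest adjusted p of the 15, 0.0487, with untreated values of 10.31, 9.22 and 8.12 that spread over more than 2 log2 units. The calls of the other 10 were lost without untreated replicate 1, 9 of them without untreated replicate 2, 8 without deficient replicate 2 and 6 without deficient replicate 3.

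Of 21 measured genes of resting astrocytes, 12 fell and none rose, and all 21 differences were below 0, with a median of -0.98 against -0.0067 over all genes. Slc7a10, the D-serine and alanine transporter of astrocytes, read 10.32, 10.05 and 9.86 and then 9.18, 8.67 and 7.81, and fell by 1.52 (SE 0.29, adjusted p = 0.0126). Grin2c, an NMDA receptor subunit, fell by 1.56, Fgfr3, a growth factor receptor, by 1.34, and Hepacam, an adhesion protein at astrocyte contacts, by 1.12. The gap junction genes Gjb6 and Gja1 fell by 1.24 and 1.08, and Chrdl1, a secreted BMP antagonist, by 1.08. Aldh1l1, a folate enzyme used as an astrocyte marker, fell by 0.98. Aqp4, the water channel of end feet, stood at -0.70 (adjusted p = 0.148) and Slc1a2, the main glutamate transporter, at -0.68 (0.0699), neither past the threshold.

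The 12 astrocyte calls rested on few arrays. They became 1 without deficient replicate 2 or 3 and 0 without untreated replicate 1 or 2, and they were 16 without deficient replicate 1. The median stayed between -0.85 and -1.20 in those 6 fits. In wild-type arrays at 12 weeks the list had a median of -0.61 with 2 calls, and the direct difference had a median of -0.29 with none called and 2 genes, both lower, at an unadjusted p under 0.05. With the choroid plexus marker mean as a covariate the median was -1.13, and with the microglia marker mean it was -0.55.

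Astrocyte genes for engulfment fell for 3 of 14 members. Mertk, a receptor kinase for dying cells and myelin debris, read 9.96, 9.78 and 9.44 and then 8.93, 8.29 and 7.69, and fell by 1.42 (SE 0.30, adjusted p = 0.0185). Mfge8, a bridging protein, fell by 1.08 and Megf10, a scavenger receptor, by 0.86. The wild-type arrays at 12 weeks read 9.56, 8.93 and 9.42 for Mertk, above or at the highest deficient value, and the direct difference of -1.0 was not called (95% interval -1.63 to -0.37, adjusted p = 0.458). None of the 3 calls against the untreated arrays was kept without deficient replicate 2 or 3 or untreated replicate 1 or 2 (adjusted p up to 0.0995).

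Of 23 matrix and proteoglycan genes, 5 fell, with a median of -0.13 over the list. Hapln1, a link protein, read 8.86, 8.56 and 8.52 and then 7.28, 7.28 and 7.17, and fell by 1.4 (SE 0.22, adjusted p = 0.00586). Ncan and Bcan, neurocan and brevican, fell by 1.16 and 1.13, the heparan sulphate proteoglycan Gpc5 by 0.80 and the laminin chain Lama2 by 0.75. Hapln1 alone kept its call in every fit without 1 array, and the count was 1 without deficient replicate 2 or 3 or untreated replicate 1 or 2. Of 32 Wnt and BMP genes, 5 fell, with a list median of -0.145: Fzd2, Gdf10, Chrdl1, Fzd1 (-0.95) and Wnt7b (-0.78). That count was 1 without deficient replicate 2 or 3 and 0 without untreated replicate 1 or 2.

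Reactive astrocyte genes rose in part. Of 14 genes raised in reactive astrocytes of several kinds, 4 rose and none fell, with a median of 0.51. Serpina3n, a secreted protease inhibitor, read 6.39, 6.12 and 5.81 and then 8.29, 7.30 and 9.17, and rose by 2.15 (SE 0.35, adjusted p = 0.00607), with its call kept in all 6 fits without 1 array. Gfap, Hspb1, a small heat shock protein, by 1.09, and Vim, vimentin, by 1.00 were the others. Cd44 stood at 1.21 (adjusted p = 0.0521) and Lcn2 at 0.41 (0.61). The 4 calls became 2 without deficient replicate 2 or 3 or untreated replicate 2, and 1 without untreated replicate 1 or 3. Of 10 genes of the A1 type, 2 rose, both of class I presentation (H2-T23 and Psmb8), with 0 called without deficient replicate 2 or untreated replicate 2 and 1 without deficient replicate 3 or untreated replicate 1 or 3, and of 12 of the A2 type, Cd14 rose, by 3.01. Cd14 is also a receptor of myeloid cells. The direct test called none of the pan-reactive, A1 and A2 genes, and 4 of them, all lower in the deficient arrays, had an unadjusted p under 0.05.

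**Figure D4:**
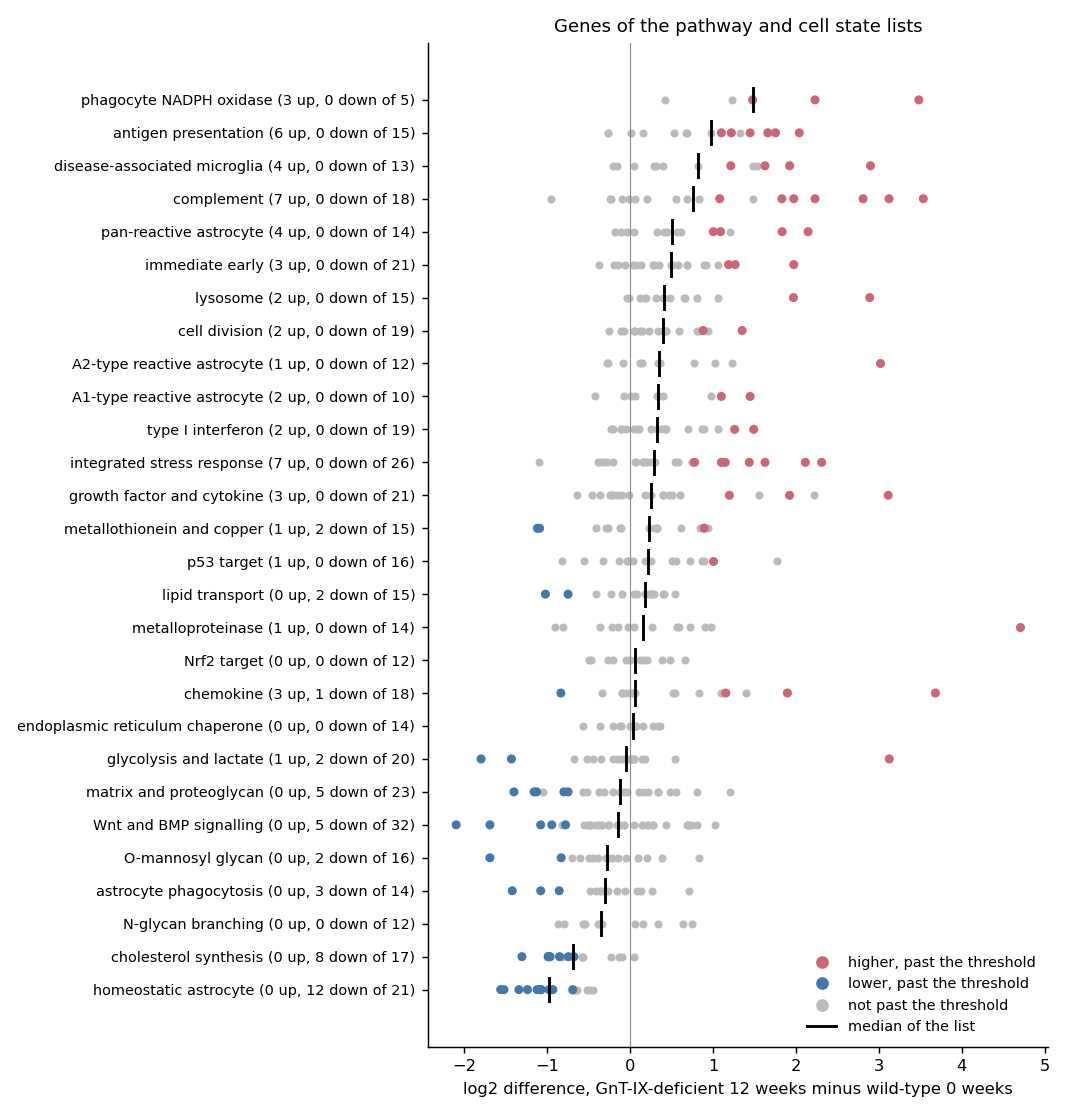
Each point is a measured gene of a pathway or cell state list (y axis, with counts past the limma threshold), placed by its log2 difference of deficient 12-week minus untreated wild-type arrays (x axis), and bars are list medians. Medians run from 1.48 for the phagocyte NADPH oxidase to -0.98 for homeostatic astrocyte genes.

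Sterol synthesis genes fell. Of 17 measured, 8 fell and none rose, 16 differences were below 0, and the median was -0.69. Mvd, mevalonate diphosphate decarboxylase, read 8.13, 7.72 and 6.97 and then 6.34, 6.33 and 6.23, and fell by 1.31 (SE 0.27, adjusted p = 0.018). Dhcr7, which makes cholesterol in the last step of one branch, read 9.15, 9.31 and 9.07 and then 8.51, 8.23 and 7.87, and fell by 0.97 (SE 0.19, adjusted p = 0.0136). The enzymes Msmo1 and Hmgcs1 fell by 0.99 and 0.97, Fdft1, squalene synthase, by 0.85, Sqle by 0.75 and Mvk by 0.68, and Insig1, which holds the sterol sensor in place, fell by 0.99. Cyp51 stood at 0.04 and Fdps at -0.23. The 8 calls became 0 without deficient replicate 2 or untreated replicate 1 or 2 and 1 without deficient replicate 3, while the median stayed between -0.66 and -0.76. The wild-type arrays at 12 weeks had a median of -0.61, and the direct difference a median of -0.13 with no call and no gene at an unadjusted p under 0.05. Of 15 lipid transport genes, Lcat, which esterifies cholesterol in lipoproteins, fell by 1.02 and Npc1 by 0.75. Neither was called without deficient replicate 2 or untreated replicate 1, 2 or 3.

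Hmgcs1, which makes the precursor of mevalonate, has a promoter window that holds both letters looked for in these genes, and so is printed (chr13:119690101-119690350, plus strand, GRCm38.p6, RefSeq, 250 bases before the start). Capitals mark TCACNCCAC, a core of the sterol regulatory element, and CCAAT, the box of NF-Y, in the gene's direction or, as ATTGG, on the other strand.
Hmgcs1: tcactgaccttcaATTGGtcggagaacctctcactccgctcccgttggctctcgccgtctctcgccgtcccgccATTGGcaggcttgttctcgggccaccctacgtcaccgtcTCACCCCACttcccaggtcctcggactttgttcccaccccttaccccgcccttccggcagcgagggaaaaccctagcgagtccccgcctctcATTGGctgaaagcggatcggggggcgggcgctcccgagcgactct
Among the 6 of the 8 fallen genes with a window, TCACNCCAC was found in Hmgcs1 and CCAAT in all 6, against 1.22% and 37.5% of 27025 genes.

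Genes of the integrated stress response rose in part. Cells under amino acid shortage or mitochondrial stress switch on its targets through the factor ATF4. Of 26 measured members, 7 rose and none fell, with a median of 0.28. Asns, asparagine synthetase, read 6.49, 6.30 and 7.05 in the untreated arrays and 8.51, 8.84 and 9.42 in the deficient arrays, and rose by 2.31 (SE 0.28, adjusted p = 0.00142). Nupr1, a small stress protein, read 7.17, 7.40 and 7.43 and then 9.10, 9.48 and 9.76, and rose by 2.11 (SE 0.22, adjusted p = 0.000322). Ddit3, the death-linked factor CHOP, read 7.44, 7.23 and 7.39 and then 8.59, 8.77 and 9.58, and rose by 1.63 (SE 0.25, adjusted p = 0.00515). For these 3 genes no array overlapped between the groups, which held for 798 of the 801 called genes and 25.1% of all genes. It largely follows from the call. All 3 kept their call in every fit without 1 array.

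Cebpg, a partner of ATF4, rose by 1.44, Chac1, which breaks down glutathione, by 1.15, Mthfd2, a mitochondrial folate enzyme, by 1.10 and Atf5 by 0.78. Atf4 itself stood at 0.75 (adjusted p = 0.076) and Trib3 at 0.54 (0.142). The 7 calls became 5 without deficient replicate 2 or 3, 4 without untreated replicate 1 and 3 without untreated replicate 2. With deficient replicate 3 alone, a fit with no replication of the deficient group, the list median was 0.45. The wild-type arrays at 12 weeks read 8.73, 8.27 and 8.63 for Asns, and the direct difference of 0.38 was not called (95% interval -0.22 to 0.98, adjusted p = 0.803). Over the list the direct difference had a median of 0.18 with no call and 1 gene, lower, at an unadjusted p under 0.05.

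The letters TGATGNAA (TTNCATCA on the other strand), the form of the C/EBP-ATF element searched, lie in the windows of 3 of the 7 risen genes, printed here because these genes rose together. Asns is at chr6:7693210-7693459 (minus strand), Nupr1 at chr7:126625471-126625720 (minus strand) and Chac1 at chr2:119350992-119351241 (plus strand), each as the 250 bases before the RefSeq start on GRCm38.p6, with the match in capitals.
Asns: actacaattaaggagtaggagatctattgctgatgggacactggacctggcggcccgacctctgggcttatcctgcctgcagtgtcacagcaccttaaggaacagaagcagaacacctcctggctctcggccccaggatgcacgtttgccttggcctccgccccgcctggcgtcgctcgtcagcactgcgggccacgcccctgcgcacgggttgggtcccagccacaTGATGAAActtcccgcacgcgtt
Nupr1: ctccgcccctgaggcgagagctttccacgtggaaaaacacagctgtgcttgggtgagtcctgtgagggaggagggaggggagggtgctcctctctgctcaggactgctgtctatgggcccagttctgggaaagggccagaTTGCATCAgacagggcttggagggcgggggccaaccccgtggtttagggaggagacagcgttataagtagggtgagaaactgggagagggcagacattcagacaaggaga
Chac1: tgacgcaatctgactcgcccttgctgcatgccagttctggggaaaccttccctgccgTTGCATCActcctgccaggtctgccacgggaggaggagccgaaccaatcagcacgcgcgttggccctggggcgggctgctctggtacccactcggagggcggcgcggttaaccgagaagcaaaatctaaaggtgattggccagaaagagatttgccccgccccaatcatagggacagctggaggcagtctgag
The first base of the match lies 23 bases before the start in Asns, 110 in Nupr1 and 193 in Chac1. Of 27025 genes with a window, 3.91% hold these letters.

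Other stress pathways had few calls. Over all genes, 4214 of 19505 had an unadjusted p under 0.05 against the untreated arrays. Of 14 endoplasmic reticulum chaperones, limma called none, and 1, lower, had an unadjusted p under 0.05, with Hspa5, the main chaperone, at -0.37. Of 12 Nrf2 targets, none was called, with 2 higher and 2 lower at an unadjusted p under 0.05, and Hmox1 stood at 0.48. Of 16 p53 targets, Plk2 rose by 1.00, and it was not called without untreated replicate 1 or 2 (adjusted p up to 0.0723). Cdkn1a stood at 1.78 (adjusted p = 0.0608), with untreated values of 9.02, 9.29 and 6.54. Of 21 immediate early genes, which respond within minutes to stimuli and to tissue handling, 3 rose: Junb by 1.97, Egr2 by 1.27 and Egr1 by 1.19. Junb kept its call in all 6 fits, and the count was 1 without deficient replicate 2 or untreated replicate 1 and 2 without deficient replicate 3 or untreated replicate 2.

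Cuprizone binds copper, and of 15 measured genes of copper handling, 1 rose and 2 fell, with a median of 0.23. Over all genes 2.41% were higher and 1.7% lower. Sod3, the copper enzyme that removes superoxide outside cells, read 7.90, 7.47 and 7.53 and then 6.67, 6.39 and 6.48, and fell by 1.12 (SE 0.18, adjusted p = 0.00635). Its call was kept in all 6 fits without 1 array, and the direct difference was -0.68 (95% interval -1.07 to -0.28, adjusted p = 0.412). Steap3, a metalloreductase, fell by 1.09, and Atox1, a copper chaperone, rose by 0.89. Neither was called without deficient replicate 2 or untreated replicate 1 or 2 (adjusted p up to 0.14). Mt1, Mt2 and Mt3, the metallothioneins, stood at -0.26, -0.41 and -0.11 and were not called.

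In glycolysis, Hk1, hexokinase, read 5.80, 5.65 and 5.44 and then 4.66, 4.16 and 3.77, and fell by 1.43 (SE 0.28, adjusted p = 0.0138), and Pfkp fell, while Emb was the one gene of 20 that rose. Neither fall was called without deficient replicate 2 or 3 or untreated replicate 1 or 2. Slc16a1, a transporter that embigin can partner, stood at 0.02, Slc16a3 at -0.21 and Bsg, the main partner of these transporters, at 0.54 (adjusted p = 0.0767). Of 16 genes of O-mannosyl glycan synthesis, Mgat5b and Pomt2, which starts the glycan, fell, the latter by 0.83 (adjusted p = 0.033). Its call was lost without deficient replicate 1, 2 or 3 or untreated replicate 1 or 2 (adjusted p up to 0.16). Pomgnt1 stood at -0.27 and Dag1, dystroglycan, which carries the glycan, at -0.50. Of 12 genes of N-glycan branching limma called none. Against 4214 of 19505 over all genes, 1 higher and 4 lower of these 12 had an unadjusted p under 0.05. Among them was Mgat5, the closest relative of Mgat5b, at -0.87 (adjusted p = 0.0526). Of 14 metalloproteinases and inhibitors, Mmp12 alone was called. Of 19 cell division genes, Cdk1 rose by 1.35 and Pcna by 0.88, where 2.41% of all genes were higher. Neither was called without deficient replicate 2 or 3 or untreated replicate 1 or 2 (adjusted p up to 0.172). Without untreated replicate 3, 5 genes of the list were called.

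Choroid plexus genes rose in the deficient arrays and not evenly among them. Of 19 measured, 6 rose and none fell, with a median of 1.41, while the wild-type arrays at 12 weeks had a median of -0.07 over the untreated arrays. Slc13a4, a sulphate transporter, read 4.8, 5.82 and 4.39 in the untreated arrays, 7.52, 6.35 and 5.83 in the wild-type arrays at 12 weeks and 9.70, 8.53 and 8.74 in the deficient arrays. It rose by 3.99 (SE 0.44, adjusted p = 0.000717). Folr1, a folate receptor, read 4.83, 5.54 and 5.97 and then 9.59, 8.79 and 6.63 in deficient replicates 1, 2 and 3, and rose by 2.89 (SE 0.53, adjusted p = 0.0108). Kcnj13, Otx2, F5 and Calml4 rose by 2.52, 2.43, 2.21 and 1.91. In 4 of these 6 genes deficient replicate 1 was the highest and replicate 3 the lowest.

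Ttr, transthyretin, the main product of the choroid plexus, read 4.88, 9.24 and 6.02 in the untreated arrays and 12.47, 12.09 and 9.56 in the deficient arrays, a difference of 4.66 that was not called (adjusted p = 0.0808). Kl, klotho, read 7.82, 6.01 and 3.05 in deficient replicates 1, 2 and 3 and 2.92, 3.88 and 3.27 in the untreated arrays. The list's count was 2 without deficient replicate 2, 1 without untreated replicate 1, 4 without untreated replicate 2 and 12 without deficient replicate 3. With deficient replicate 3 alone, a fit with no replication of the deficient group, its median was 0.16. Directly against the wild-type arrays at 12 weeks the list had a median of 1.54 with no call. In that test 13 of its genes, all higher, had an unadjusted p under 0.05, against 1363 of 19505 over all genes. With the choroid plexus mean as a covariate 62 genes were called against the untreated arrays, 53 of them among the 801. That fit raised the median standard error by 1.587 times and kept a median of 114.0% of the differences of the 801 genes.

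**Figure D5:**
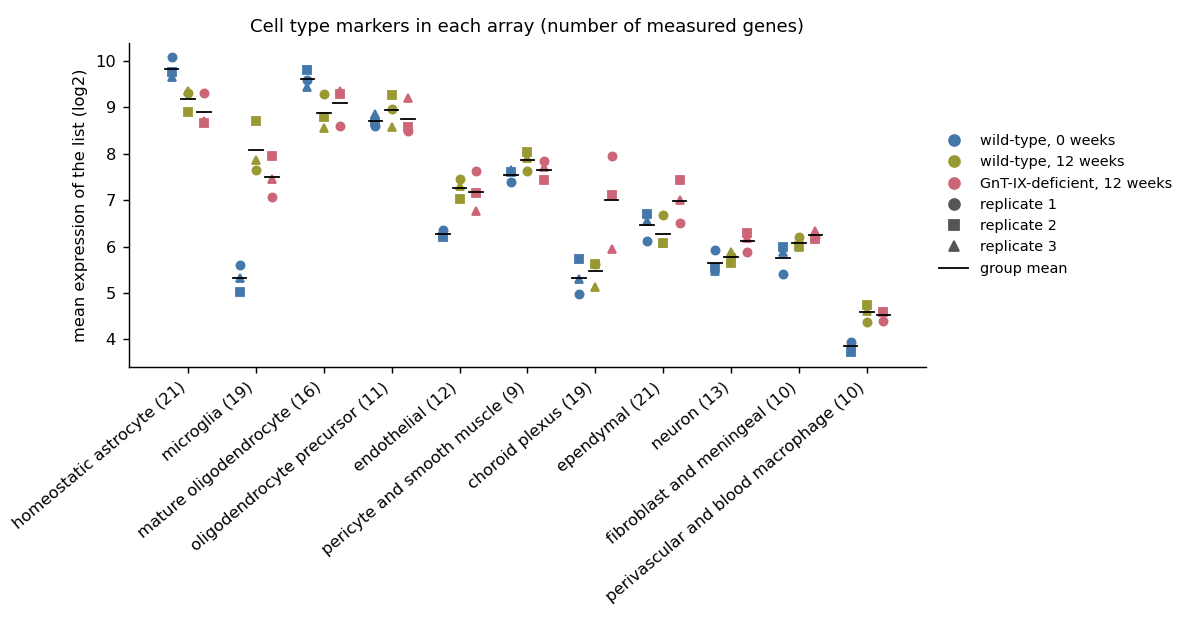
Mean log2 expression (y axis) of the measured markers of each cell type (x axis, with their number) in each array of the 3 groups, with shapes for replicates and bars for group means. Microglia markers are high in both groups at 12 weeks, and choroid plexus markers are high in deficient replicates 1 and 2.

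Ependymal genes, of the ciliated cells that line the ventricles, rose for 3 of 21, with a median of 0.44: Cfap126 by 1.56, Mia by 1.29 and Rsph1 by 1.14. Deficient replicate 2 was the highest of its group for all 3 genes. The count was 0 without deficient replicate 2 or 3 or untreated replicate 1, 1 without untreated replicate 2 and 8 without deficient replicate 1. Directly against the wild-type arrays at 12 weeks, 13 of the 21 were higher at an unadjusted p under 0.05 and none was called. Over all genes that test had 1363 of 19505 at an unadjusted p under 0.05.

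Endothelial genes rose for 5 of 12, with a median of 0.96. Cldn5, the tight junction protein of brain vessels, read 6.69, 6.29 and 6.68 and then 8.88, 8.55 and 8.16, and rose by 1.98 (SE 0.37, adjusted p = 0.0117). Ly6c1, Slco1a4, Abcb1a and Kdr rose by 1.71, 1.33, 1.19 and 1.12. The count was 0 without untreated replicate 1 or 2, 1 without deficient replicate 2, 2 without deficient replicate 1 and 3 without untreated replicate 3. The wild-type arrays at 12 weeks had a median of 0.99 over the untreated arrays, and the direct difference a median of -0.07. Of 9 pericyte genes none was called, and 1, lower, had an unadjusted p under 0.05, against 4214 of 19505 over all genes. Among 10 fibroblast and meningeal genes Ogn rose by 1.53, Dcn by 1.38 and Igf2 by 1.20, and none of these 3 calls held in all 6 fits without 1 array. The count was 1 without deficient replicate 1, 2 or 3, 0 without untreated replicate 1 or 2 and 2 without untreated replicate 3.

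Of 16 mature oligodendrocyte genes, 1 fell: Fa2h, which makes hydroxylated fatty acids for myelin, by 1.23 (adjusted p = 0.0429). Its values were 10.49, 10.42 and 9.99 and then 8.38, 9.67 and 9.15. All 16 differences were below 0, with a median of -0.585, from -0.89 for Mobp to -0.01 for Trf besides Fa2h. Of the 16, 6 had an unadjusted p under 0.05, against 4214 of 19505 over all genes. The call of Fa2h was lost without deficient replicate 1 or 3 or untreated replicate 1 or 2 (adjusted p up to 0.161). Of 11 oligodendrocyte precursor genes limma called none, with 1 higher and 1 lower at an unadjusted p under 0.05. Of 13 neuronal genes Syt4, a synaptotagmin, rose, from 5.54, 5.15 and 5.29 to 7.66, 7.64 and 8.54, by 2.62 (SE 0.25, adjusted p = 0.000194). Its call was kept in all 6 fits without 1 array. The other neuronal markers were not called, with Snap25 at 0.92 (adjusted p = 0.0784) and Rbfox3 at 0.20. Syt4 read 7.10, 7.52 and 8.00 in the wild-type arrays at 12 weeks, with a direct difference of 0.41 (95% interval -0.13 to 0.95).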

How the data were processed

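Cells from 12 samples were hybridised to 12 single-colour Affymetrix arrays, 3 per group. The deposited values are log2 signals that the authors summarised with RMA in Affymetrix Expression Console 1.4, per the submitters' processing notes, so background correction, quantile normalisation and probe summary were done before deposit, on a scale where dim genes are compressed. Depth has no meaning for arrays, and precision is limited by 3 arrays a group. The labels do not say whether a replicate is 1 animal or a pool.

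Of 22206 transcript clusters, 19572 had 1 gene symbol and 2634 had none and were not named. For 55 genes with several clusters the brightest was used, which left 19505 genes. Symbols were matched through Entrez numbers to RefSeq. One mean per group was fitted over all 12 arrays (8 residual degrees of freedom) with limma 3.58.1 in R 4.3.3, tested with moderated statistics and adjusted by Benjamini-Hochberg over all 19505 genes, with a threshold of 0.05. The script was tested on simulated data. Genes whose untreated mean lay below the lower quartile of all values, 3.79, are called dim.

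Genes are named by a rule: Mgat5b, Slc1a3 and Gfap; the 15 largest rises and 15 largest falls among called genes whose groups did not overlap; up to 6 called members of each list; and genes called against both wild-type groups. Other genes were named as list members after their values were seen. The members, the 41 lists (587 of 646 genes measured) and the motifs were chosen with earlier results of these data known. Alternatives were normalisation, a filter on dim genes, the mean of a gene's clusters, variance settings, array weights, fewer arrays, a replicate block, marker means as covariates, a 2-fold minimum and leaving out arrays. Leaving out deficient replicates 1 and 2 together was added after the data were seen. Promoter windows come from RefSeq (GRCm38.p6) and were searched on both strands.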

Additional observations from a re-analysis of the deposited data

Results flagged for a closer look

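For 5 genes the level after 12 weeks of cuprizone differed between the genotypes by a direct test of deficient against wild-type arrays at that time (limma, adjusted p under 0.05, 19505 genes). The differences were 3.02 for Gm3893, 2.62 for Emb, -1.82 for Mgat5b, 1.81 for Fam205a2 and 1.59 for Cd55 on the log2 scale. With no untreated deficient arrays analysed here, a difference between the genotypes that is there without the diet cannot be told apart from a different response to it. All 3 deficient arrays lay on the same side of all wild-type arrays for each of the 5 genes, for Fam205a2 by the brighter of its clusters. The genes were chosen by calls on these same arrays, so this separation largely follows from the choice and adds no separate evidence. The cause of these differences was not tested.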

How the results depend on the processing

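The 801 genes called against the untreated arrays became 62 with the choroid plexus marker mean as a covariate, 3 with the microglia mean and 128 with the ependymal mean, 387 with a 2-fold minimum and 208 without deficient replicates 1 and 2 (added after the data were seen, with 1 deficient array assumed to vary like the other groups). Leaving out 1 array gave 98 to 1062. The other settings gave 796 to 1038 (977 with the 6 arrays compared alone), with a share of higher genes of 58.7% in the fit reported and 49.4% after median centring. The 5 genes of the direct test became 1 with the choroid plexus mean, 3 with the ependymal mean and 3 to 49 without 1 array. The 514 genes of wild-type arrays at 12 weeks against untreated arrays became 919 with array weights and 77 to 504 without 1 of the arrays compared. With the microglia mean limma called 0 of them, and 839 had an unadjusted p under 0.05. Of 122 named genes, the call was kept for 118 after quantile normalisation, 119 of 119 after the filter on dim genes, 30 with the choroid plexus mean and 3 with the microglia mean. With the latter, 6 changed sign and were not called: H2-DMa at -0.33, Itgam at -0.24, Rac2 at -0.23, Cyba at -0.16, C1qc at -0.075 and Lgals3 at -0.055 (limma, adjusted p 0.9 to 0.989). Each covariate also differed between the groups and raised the standard error, so fewer calls follow from the construction of these fits, and the share owed to other cells was not tested. The labels do not say that replicate numbers pair the samples. Deviations of same-numbered deficient and untreated arrays correlated at 0.139, 0.011 and 0.058, and those of differently numbered ones at -0.095 to 0.038. Same-numbered wild-type arrays at 12 and 0 weeks gave 0.216, -0.036 and 0.186, and differently numbered ones -0.3 to 0.136. These values do not settle whether the numbers mark paired samples. With the replicate number as a block, 817 genes were called against the untreated arrays, 5 directly and 442 for the wild-type arrays, and 11 of the 122 named genes lost their call. With 3 arrays a group, single arrays set which genes near the threshold were called, and dim genes carry uncertain sizes.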

Other observations

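Genes of cytosolic ribosomal proteins, a group chosen after the values were seen and given without a test of the group, were higher in the deficient 12-week arrays. Of 62 measured symbols, 46 were higher than in the untreated arrays and none lower, with a median of 0.865 on the log2 scale. Over all genes 2.41% were higher and 1.7% lower. Their mean was 8.28 to 8.42 in the untreated arrays, 8.97 to 9.25 in the wild-type arrays at 12 weeks and 8.98 to 9.30 in the deficient arrays, so the groups at 12 weeks overlapped each other and not the untreated group. The direct difference had a median of 0.05. The 46 calls became 9 without untreated replicate 1, 15 without untreated replicate 2 or deficient replicate 2, 23 without deficient replicate 3 and 13 without deficient replicates 1 and 2.

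Of 81 measured symbols of respiratory chain subunits, chosen in the same way, 13 were higher and none lower, with a median of 0.46. Over all genes 2.41% were higher and 1.7% lower. Their mean was 8.17 to 8.34 in the untreated arrays, 8.27 to 8.52 in the wild-type arrays at 12 weeks and 8.66 to 8.76 in the deficient arrays, which lay above all others. The direct difference had a median of 0.29, and limma called 0 of the 81 in the direct test. Leaving out 1 array gave 1 to 10 calls. The labels do not assign extraction kits to arrays, and the part of the kit in these values was not tested.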
